A study of Mus musculus with 38 samples.

Results

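The PGC-1 coactivators, the estrogen-related receptors (ERRs) and the factors that act with them on mitochondrial genes were followed at the level of promoters in the soleus muscle of mice before, during and after daily torpor. The 8 genes chosen were *Ppargc1a*, *Ppargc1b*, *Esrra*, *Esrrg*, *Perm1*, *Nrf1*, *Tfam* and *Gabpa*. Their promoters are the cap analysis of gene expression (CAGE) clusters whose highest peak lies within 500 bp, on the same strand, of an annotated 5′ end of the gene in GENCODE M21 (mm10). By this rule 7 of the 10819 clusters were members, from 6 of the 8 genes. *Nrf1* had no cluster within the window or elsewhere in the gene on its strand, and *Esrrg* had none within the window. The deposited clusters are fewer than the study reports, so this is absence from the deposited set and not a measure of no activity. Promoter levels are given in tags per 1000000 tags of the library (TPM).

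The mice were young adult C57BL/6J males without a transgene or deletion, and each library came from the soleus muscle of 1 mouse. In experiment #1 there were 4 Pre mice (food freely available, day 1), 8 Mid mice (food withdrawn on day 2, in or between bouts of torpor) and 4 Post mice (food returned, day 3). A further 4 HiT mice were kept at high ambient temperature. The 4 Fed mice were not fasted on day 2. By the study's account the Fed and Mid mice were at low ambient temperature. The 4 Dep mice were fasted and touched gently on day 2 whenever oxygen consumption began to drop. The labels and the design text differ from the methods of the study on food: a label of the Fed libraries names starvation and the design text gives the HiT mice food, whereas the methods describe HiT as fasted and Fed as fed, and the methods were followed here. Experiment #2 had 2 Pre, 5 Mid and 3 Post mice. Its Post libraries shared a sequencing lane with 1 Mid library, and its other libraries were in another lane. Condition and lane can therefore hardly be told apart from Mid to Post in experiment #2. Tags in clusters numbered 18257657 to 39176649 per library in experiment #1 and 9359994 to 20914855 in experiment #2. Markers of slow and fast muscle fibres were present in every library (9 of 10 and 11 of 11 listed genes with a cluster), whereas 5 of 6 brown adipocyte markers, *Ucp1* among them, had no cluster. Dep replicate 1 stood apart in 4 neutrophil markers (117 TPM in sum, at most 1.74 in the other libraries of experiment #1) and Fed replicate 2 in 5 red blood cell markers (12643 TPM in sum). The 8 Mid libraries enter several comparisons, which are therefore not independent of each other. In muscle tissue, fewer cells of a type and less RNA per cell cannot be told apart.

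PGC-1α and PGC-1β, encoded by *Ppargc1a* and *Ppargc1b*, are coactivators that bind no DNA themselves and act through transcription factors. ERRα and ERRγ (*Esrra*, *Esrrg*) are orphan nuclear receptors on which PGC-1 proteins dock at genes of oxidative metabolism, and PERM1 is a muscle regulator downstream of both. NRF-1 and the ETS factor GABP, whose DNA-binding subunit is encoded by *Gabpa*, bind many nuclear genes of mitochondria, among them *Tfam*, whose product packages mitochondrial DNA and starts its transcription. The soleus is an oxidative muscle of slow and fast fibres, and *Ppargc1a* is known for several alternative promoters in muscle.

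The genomic sequence before 5 of the member promoters is shown first, since some of these genes are known targets of each other's products. Each stretch is the 250 bases before a RefSeq transcript start (GRCm38.p6, the assembly of mm10), read 5′ to 3′ in the direction of the gene. Capitals mark matches on either strand to the letters searched. For the ERRs these were AAGGTCA, and the longer form TCAAGGTCA that contains it. For NRF-1 they were GCGCATGC, and for GABP they were CCGGAAG. For the cyclic AMP response element they were TGACG, and the longer palindrome TGACGTCA that contains it. For the TATA box they were TATAAA.
Ppargc1a upstream promoter (chr5:51567726-51567975, minus strand): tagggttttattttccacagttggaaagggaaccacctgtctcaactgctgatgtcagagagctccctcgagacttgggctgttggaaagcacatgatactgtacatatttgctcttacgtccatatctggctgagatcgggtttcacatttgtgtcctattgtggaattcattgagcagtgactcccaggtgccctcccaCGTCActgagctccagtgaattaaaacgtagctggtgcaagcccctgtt
Esrra (chr19:6921809-6922058, minus strand): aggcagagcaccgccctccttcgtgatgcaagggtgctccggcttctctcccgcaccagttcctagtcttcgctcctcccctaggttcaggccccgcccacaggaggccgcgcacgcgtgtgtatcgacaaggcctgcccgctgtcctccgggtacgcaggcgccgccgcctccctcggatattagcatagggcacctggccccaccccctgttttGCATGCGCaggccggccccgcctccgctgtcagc
Perm1 (chr4:156215677-156215926, plus strand): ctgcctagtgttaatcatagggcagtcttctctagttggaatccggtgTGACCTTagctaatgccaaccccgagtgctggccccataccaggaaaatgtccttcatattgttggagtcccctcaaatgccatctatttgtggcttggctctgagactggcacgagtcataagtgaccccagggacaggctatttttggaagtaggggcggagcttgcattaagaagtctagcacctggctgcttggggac
Gabpa (chr16:84834874-84835123, plus strand): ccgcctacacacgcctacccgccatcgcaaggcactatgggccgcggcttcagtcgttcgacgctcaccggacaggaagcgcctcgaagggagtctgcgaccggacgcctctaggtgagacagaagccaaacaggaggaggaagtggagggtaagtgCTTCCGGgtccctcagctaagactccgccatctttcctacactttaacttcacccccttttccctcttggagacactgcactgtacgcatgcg
Tfam (chr10:71238045-71238294, minus strand): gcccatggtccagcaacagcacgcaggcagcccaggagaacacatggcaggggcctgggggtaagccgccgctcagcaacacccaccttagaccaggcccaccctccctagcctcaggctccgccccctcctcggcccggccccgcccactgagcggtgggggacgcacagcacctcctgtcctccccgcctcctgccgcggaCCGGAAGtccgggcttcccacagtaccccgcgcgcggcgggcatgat
The upstream *Ppargc1a* promoter held the shorter cyclic AMP element at -49 to -45 from the RefSeq start, as did 20.8% of all 32851 RefSeq windows of the same length. *Perm1* held the ERR core at -202 to -196 (4.72% of windows), and *Esrra* held the NRF-1 letters at -34 to -27 (2.71% of windows). The GABP letters stood at -47 to -41 in *Tfam* and at -93 to -87 in *Gabpa* itself (8.86% of windows). Positions count from the RefSeq start, and the measured *Gabpa* peak lies 206 bp after it, so its window ends before the measured promoter. None of these 5 windows held TCAAGGTCA (0.423% of windows), TGACGTCA (1.79%) or TATAAA (13.6%). These matches are descriptions of the letters and not of binding.

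To ask which of these promoters change when a mouse is torpid, the Mid group was compared with the Pre group in experiment #1. Of the 7 member promoters, 3 were differentially expressed at a false discovery rate (FDR) under 0.05, against 30.2% of all clusters tested. The upstream *Ppargc1a* promoter and *Gabpa* were higher in Mid (15.4% of all clusters were) and *Ppargc1b* was lower (14.8% of all clusters were). The FDR is that of edgeR's quasi-likelihood test over all clusters with Benjamini-Hochberg adjustment, here and below. Changes are given as log2 fold changes, the second condition named over the first. The standard error (SE) beside each is the size of the log2 fold change divided by the square root of the test's F statistic. It restates the test and is not a separate estimate of spread.

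*Ppargc1a* was measured at 2 promoters 13.9 kb apart on chromosome 5. The upstream one (51567615-51567874, peak at 51567727) has its peak 1 bp before an annotated 5′ end, and the downstream one (51553735-51554071, peak at 51553874) has its peak 3 bp before another annotated 5′ end. From background knowledge, the downstream position is that of the canonical first exon and the upstream position that of the alternative first exon known from exercise, cold and β-adrenergic signalling. At the upstream promoter the 4 Pre libraries of experiment #1 had 5.60, 2.36, 1.47 and 18.99 TPM. The 8 Mid libraries ranged from 25.9 to 351 TPM with a median of 187. The groups did not overlap, although Mid replicate 6 (25.9 TPM) lay close to Pre replicate 4 (18.99 TPM). The change from Pre to Mid was 4.78 ± 0.67 (SE) on the log2 scale, or 27.4-fold (FDR = 7.07e-06). Without Pre replicate 4 it was 5.89, and without Pre replicate 3 it was 4.45.

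After food was returned the upstream promoter was at 3.29, 1.77, 1.91 and 4.67 TPM in the 4 Post libraries, all below the lowest Mid library. It fell by 5.97 ± 0.72 on the log2 scale from Mid to Post (FDR = 5.96e-07). Post and Pre levels overlapped (-1.20 ± 0.68, FDR = 0.48). In the same libraries the downstream promoter stayed within a narrower range, with 41.2, 45.3, 38.5 and 44.0 TPM in Pre, 25.2 to 43.7 TPM in Mid (median 33.0) and 33.5, 30.2, 37.2 and 36.8 TPM in Post. Its change from Pre to Mid was -0.20 ± 0.14 (FDR = 0.28) and from Mid to Post -0.02 ± 0.14 (FDR = 0.94). The Pre to Mid value passed the threshold without Mid replicate 6, at -0.30 (FDR = 0.0498).

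**Figure D1:**
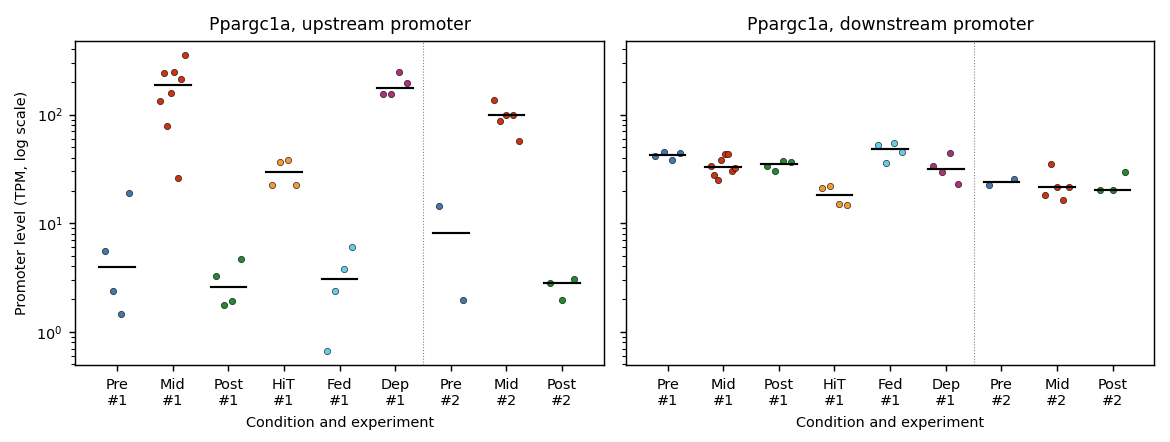
Levels of the upstream (left) and downstream (right) *Ppargc1a* promoters in TPM on a log axis, 1 point per library, by condition and experiment (#1 and #2), with a bar at the median of each group. The upstream promoter lay at 0.669 to 18.99 TPM in Pre, Post and Fed and at 25.9 to 351 TPM in Mid of experiment #1, while the downstream promoter of experiment #1 was lowest in HiT (14.8 to 21.8 TPM).

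To ask whether the change follows torpor, fasting or temperature, the study added groups in which torpor was prevented. The 4 Fed libraries had 0.669, 2.37, 3.81 and 6.06 TPM, the 4 HiT libraries 22.3, 37.0, 38.4 and 22.5 TPM, and the 4 Dep libraries 156, 156, 246 and 196 TPM. All HiT libraries lay above all Pre libraries, and 7 of the 8 Mid libraries lay above all HiT libraries. HiT was 4.99-fold above Pre (log2 2.32 ± 0.64, FDR = 0.0060) and Mid was 5.48-fold above HiT (2.46 ± 0.57, FDR = 0.0013). Mid was 59.1-fold above Fed (5.89 ± 0.71, FDR = 9.7e-07). In order of mean level the groups of experiment #1 ran Post (2.91 ± 1.36, SD, n = 4), Fed (3.23 ± 2.28, n = 4), Pre (7.10 ± 8.12, n = 4), HiT (30.1 ± 8.84, n = 4), Mid (182 ± 104, n = 8) and Dep (189 ± 42.8 TPM, n = 4). Pre did not differ from Fed (-1.11 ± 0.67, FDR = 0.29) or Post beyond the threshold, nor did Dep from Mid (0.16 ± 0.50, FDR = 0.89). Dep was 30.5-fold above Pre (4.93 ± 0.70, FDR = 9.8e-06).

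The downstream promoter had another order. The 4 HiT libraries held 21.3, 21.8, 15.01 and 14.8 TPM, below every other library of experiment #1 at this promoter. It fell by 1.03 ± 0.16 on the log2 scale from Pre to HiT (FDR = 2.8e-05) and was higher in Mid than in HiT by 0.82 ± 0.15 (FDR = 7.9e-05). Fed libraries had 52.1, 35.9, 54.7 and 44.8 TPM and Dep libraries 33.5, 29.9, 44.7 and 23.2 TPM, and neither differed from Pre or Mid past the threshold. The Fed to Mid value (-0.32 ± 0.14, FDR = 0.072) passed it without Mid replicate 6 (-0.40, FDR = 0.0086). Without scaling factors the same value was -0.46 (FDR = 0.041), and with the replicate number as a block it was -0.53 (FDR = 0.0032).

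The upstream promoter supplied a changing share of the tags of the 2 *Ppargc1a* promoters. The share was 11.95%, 4.95%, 3.68% and 30.1% in the Pre libraries of experiment #1 and 37.2% to 91.5% in the Mid libraries (median 82.8%). It was 8.93%, 5.54%, 4.89% and 11.3% in Post, 51.2%, 62.9%, 71.9% and 60.4% in HiT, 1.27%, 6.19%, 6.51% and 11.9% in Fed, and 82.4%, 83.9%, 84.6% and 89.4% in Dep. The Pre and Mid shares did not overlap. The log2 ratio of the downstream over the upstream promoter, with 0.1 TPM added to each, was 3.22 ± 1.54 (SD, n = 4) in Pre and -2.10 ± 1.30 (n = 8) in Mid, a difference of -5.32 (two-sided p = 0.0020 by exact permutation over 495 divisions of the libraries, which can give no smaller value). *Ppargc1a* was the only member with 2 promoters, so this was the only pair tested. Summed over both promoters, *Ppargc1a* was at 49.4 ± 9.72 TPM in Pre, 48.3 ± 9.65 in HiT (SD, n = 4 each) and 216 ± 103 in Mid (n = 8), so the Pre and HiT sums lay close together although the promoters behind them differed.

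**Figure D2:**
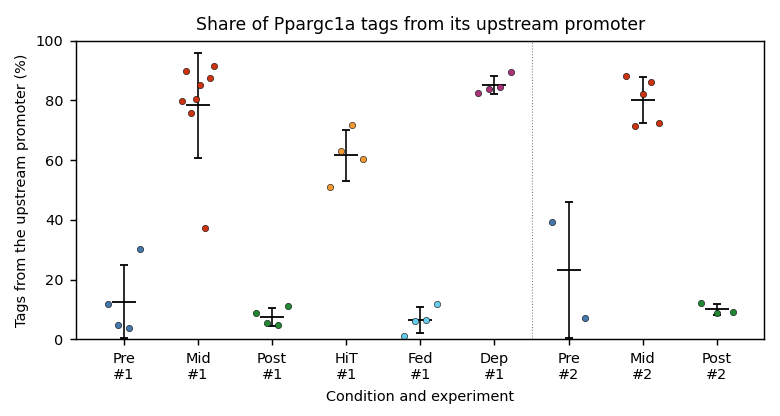
Percent of the tags of both *Ppargc1a* promoters that came from the upstream one, 1 point per library, with the mean and SD of each group as a bar and whiskers. Shares lay at or below 39.2% in every Pre, Post and Fed library and above 50% in every Mid, HiT and Dep library except Mid replicate 6 of experiment #1 (37.2%).

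Experiment #2, from an independent set of mice, gave values for the same promoters. At the upstream *Ppargc1a* promoter the 2 Pre libraries had 14.4 and 1.97 TPM, the 5 Mid libraries 137, 88.2, 100.3, 100.4 and 57.4 TPM, and the 3 Post libraries 2.81, 1.97 and 3.03 TPM. Mid lay above all Pre and Post libraries. The log2 fold change was 3.60 ± 0.58 from Pre to Mid (FDR = 0.0047), and the level fell by 5.25 ± 0.55 from Mid to Post (FDR = 0.00017). With 1 Pre library left out the Pre to Mid value was 2.78 or 5.69, so its size rested on the 2 Pre mice. In this experiment 2 of the 7 member promoters changed from Pre to Mid (9.74% of all clusters did) and 2 from Mid to Post (16.4% of all clusters did), in both cases the upstream *Ppargc1a* promoter and *Ppargc1b*. The downstream promoter was at 22.3 and 25.3 TPM in Pre and 16.2 to 35.3 TPM in Mid (-0.01 ± 0.25, FDR = 0.98). No member differed between the experiments in its change from Pre to Mid or from Mid to Post by edgeR's interaction test (0 of 7 in each, as for 0% of the 10819 clusters). At an unadjusted p under 0.05 the edgeR test held 1 member in each, *Gabpa*, and DESeq2 and the likelihood ratio test called 0 of 7. Of all 10819 clusters, 605 (Pre to Mid) and 704 (Mid to Post) had such an edgeR p. DESeq2 called 8 and 1 of them and the likelihood ratio test 8 and 0.

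*Ppargc1b*, the other coactivator of the family, moved the opposite way. Its promoter (chromosome 18, 61400298-61400510, minus strand, peak 2 bp before an annotated 5′ end) had 12.5, 13.4, 13.8 and 19.6 TPM in Pre, 4.74 to 10.9 TPM in Mid (median 7.27) and 15.3, 17.03, 13.1 and 15.5 TPM in Post. All Mid libraries lay below all Pre and Post libraries. It fell by 0.86 ± 0.23 on the log2 scale from Pre to Mid (FDR = 0.0063) and rose by 0.97 ± 0.23 from Mid to Post (FDR = 0.0019). Fed libraries had 26.8, 18.3, 14.5 and 16.5 TPM, and Mid was lower than Fed by a log2 value of -1.22 ± 0.23 (FDR = 0.00022). HiT libraries (10.6, 12.2, 11.7 and 5.78 TPM) overlapped Mid (-0.48 ± 0.24, FDR = 0.11), and without Mid replicate 6 this value passed the threshold (-0.60, FDR = 0.026). Pre to HiT did not pass either (-0.38, FDR = 0.29). Dep libraries had 11.7, 11.5, 6.87 and 5.09 TPM, and neither Pre to Dep (-0.57, FDR = 0.13) nor Mid to Dep (0.29, FDR = 0.53) passed. In experiment #2 the Pre libraries had 11.2 and 16.6 TPM, the Mid libraries 8.30, 9.46, 8.34, 6.75 and 8.38, and the Post libraries 16.98, 16.95 and 17.9 TPM. The change was -0.69 ± 0.15 from Pre to Mid (FDR = 0.017) and 0.98 ± 0.13 from Mid to Post (FDR = 0.00062). The first of these lost the threshold without Pre replicate 6 (-0.40, FDR = 0.25).

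*Gabpa* (chromosome 16, plus strand, peak at 84835330, in the 5′ UTR 206 bp after the RefSeq start) was the remaining member that changed from Pre to Mid in experiment #1. It was at 31.3, 35.2, 29.98 and 26.6 TPM in Pre, 31.1 to 53.3 TPM in Mid (median 43.4) and 24.3, 27.5, 33.3 and 34.2 TPM in Post. Only Mid replicate 6 fell within the range of the Pre libraries. The change was 0.57 ± 0.08 from Pre to Mid (FDR = 4.8e-06) and -0.56 ± 0.08 from Mid to Post (FDR = 4.0e-06). Dep libraries (45.2, 38.6, 44.6 and 32.6 TPM) were above Pre by 0.56 ± 0.09 (FDR = 3.4e-05), HiT libraries by 0.34 ± 0.09 (FDR = 0.0041). Mid was above Fed by 0.32 ± 0.08 (FDR = 0.0022) and above HiT by 0.24 ± 0.08 (FDR = 0.015). The values for Pre to HiT, Pre to Dep, HiT to Mid and Fed to Mid did not pass without scaling factors (0.15, 0.38, 0.34 and 0.20, with FDR = 0.55, 0.11, 0.073 and 0.33). In experiment #2 *Gabpa* was at 39.7 and 44.1 TPM in Pre and 42.3 to 50.6 TPM in Mid (0.20 ± 0.10, FDR = 0.24).

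The receptor gene *Esrra* and *Perm1* had their largest tested differences between Mid and HiT. *Esrra* (chromosome 19, minus strand, 6921463-6921987, peak 3 bp before the annotated 5′ end) had 60.1, 70.1, 64.0 and 102 TPM in Pre and 60.2 to 113 TPM in Mid (median 88.9), a change of 0.29 ± 0.15 (FDR = 0.14). Without Pre replicate 4 that value was 0.46 (FDR = 0.026). Post libraries (48.2, 58.3, 42.9 and 78.1 TPM) were below Mid by a log2 value of -0.61 ± 0.15 (FDR = 0.0023), a call lost without scaling factors at about the same size (-0.60, FDR = 0.063). HiT libraries had 61.1, 53.4, 57.4 and 27.9 TPM, and Mid was higher by 0.69 ± 0.15 (FDR = 0.00066), although HiT replicate 1 overlapped the lowest Mid library. In experiment #2 *Esrra* was at 114 and 113 TPM in Pre, 87.6 to 105 TPM in Mid and 84.2, 95.0 and 84.8 TPM in Post, and neither change passed (Pre to Mid FDR = 0.35, Mid to Post FDR = 0.051).

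*Perm1* (chromosome 4, plus strand, peak at 156215935, 67 bp after an annotated 5′ end) did not pass the threshold across the torpor cycle. It was at 74.6, 78.3, 64.5 and 82.2 TPM in Pre, 53.0 to 94.0 TPM in Mid (median 70.8) and 50.6, 64.9, 68.0 and 68.8 TPM in Post (Pre to Mid 0.07 ± 0.11, FDR = 0.68). The 4 HiT libraries, at 41.8, 53.2, 41.5 and 28.7 TPM, lay below all Pre libraries. *Perm1* fell by 0.67 ± 0.13 on the log2 scale from Pre to HiT (FDR = 0.00028) and was higher in Mid than in HiT by 0.74 ± 0.12 (FDR = 1.6e-05). Fed (53.6 to 90.7 TPM) and Dep (66.8 to 95.8 TPM) overlapped Pre and Mid.

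*Tfam* (chromosome 10, minus strand, peak at 71238021, in the 5′ UTR 23 bp after the RefSeq start) showed small changes. Its levels in experiment #1 were 30.3, 38.0, 34.3 and 32.3 TPM in Pre, 22.3 to 39.2 TPM in Mid (median 33.6), 23.7, 32.4, 32.9 and 35.8 TPM in Post, 42.1, 41.4, 32.3 and 25.1 TPM in HiT, 25.6, 24.0, 38.2 and 33.6 TPM in Fed, and 30.3, 34.5, 38.5 and 27.7 TPM in Dep. All groups overlapped. The change from Pre to Mid was 0.04 ± 0.08 (FDR = 0.78). Pre to HiT (0.24 ± 0.10, FDR = 0.061) and HiT to Mid (-0.20 ± 0.08, FDR = 0.056) fell short of the threshold. Only Fed to Mid passed (0.23 ± 0.09, FDR = 0.036), a call lost with upper-quartile scaling (FDR = 0.088) and without Fed replicate 2 (FDR = 0.15).

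**Figure D3:**
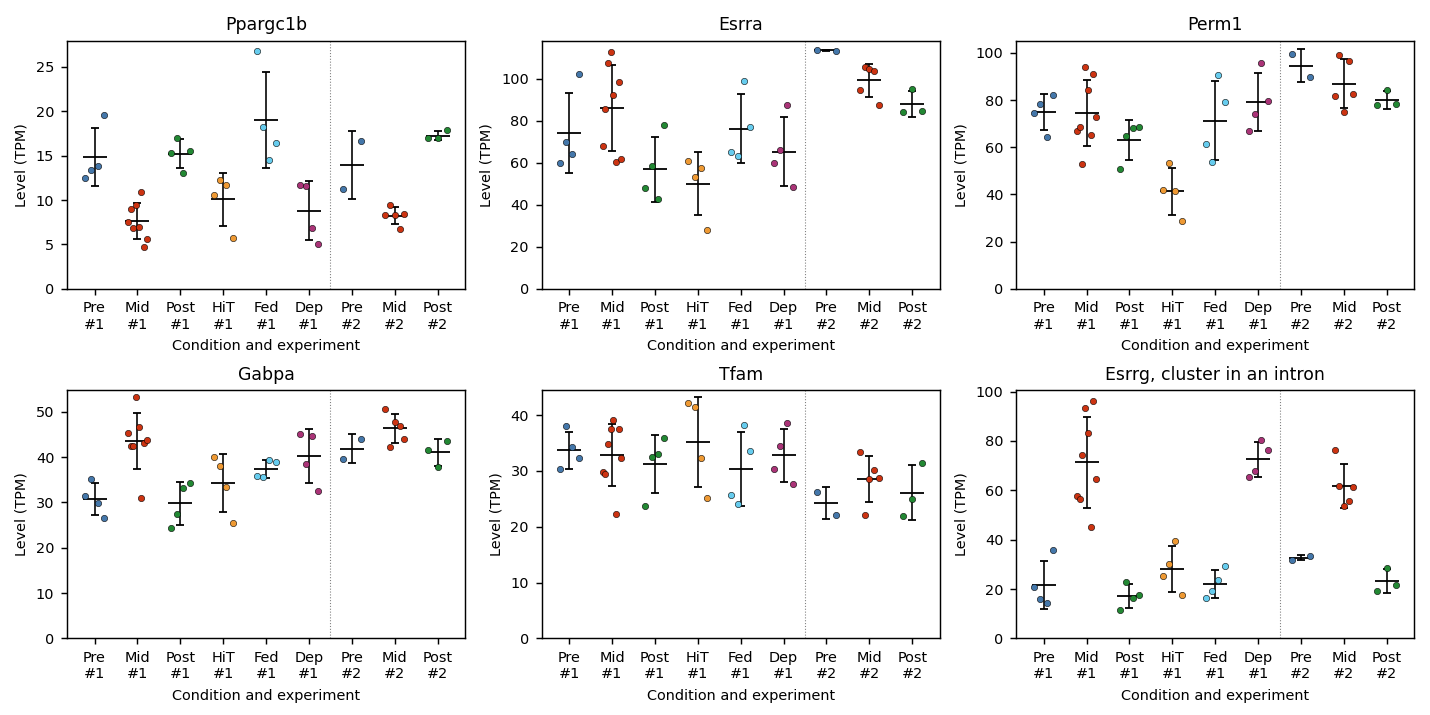
Levels in TPM of *Ppargc1b*, *Esrra*, *Perm1*, *Gabpa*, *Tfam* and the intronic *Esrrg* cluster, 1 point per library by condition and experiment, with the mean and SD of each group. *Ppargc1b* was lower in all Mid libraries (4.74 to 10.9 TPM in experiment #1) than in all Pre and Post libraries, and *Perm1* was lowest in HiT (28.7 to 53.2 TPM).

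Counted over the members, 4 of the 7 promoters changed from Mid to Post (35.0% of all clusters did), 5 from HiT to Mid (41.0%), 4 from Fed to Mid (35.2%), 4 from Pre to HiT (33.4%) and 2 from Pre to Dep (25.8%). All 5 in the HiT to Mid comparison were higher in Mid (19.2% of all clusters were higher in Mid and 21.8% lower). With so few members these counts do not set the members apart from all clusters. No member was called by edgeR between Mid and Dep (2.03% of all clusters were), Pre and Fed (11.2%) or Pre and Post (1.85%). At an unadjusted p under 0.05 there were 1, 1 and 0 members in these comparisons, DESeq2 called 0, 1 and 0, and the likelihood ratio test called 0 in each. Of all 10776 clusters, 2064, 2940 and 1379 had an unadjusted edgeR p under 0.05. DESeq2 called 479, 1559 and 326 of them, and the likelihood ratio test 343, 1243 and 246.

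**Figure D4:**
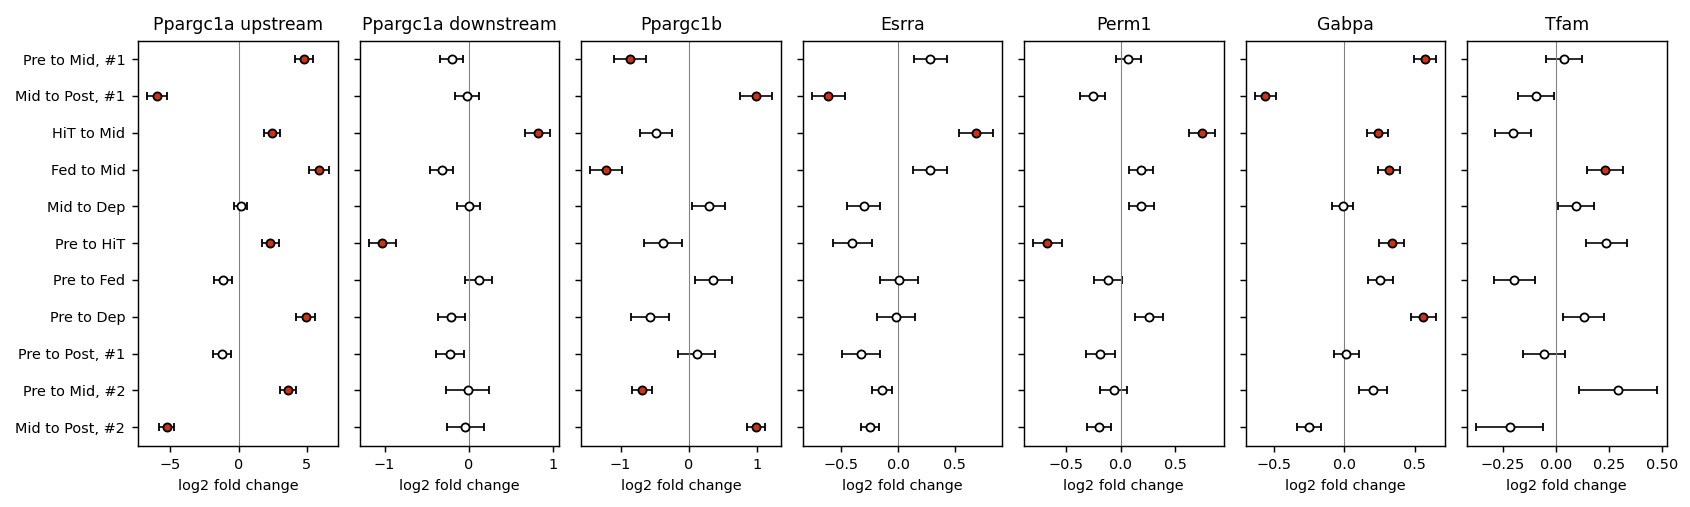
Log2 fold changes (second condition over the first) with standard errors derived from the F statistic for the 7 member promoters in 11 comparisons, filled where the FDR was under 0.05. Each panel has its own scale. The upstream *Ppargc1a* promoter spans -5.97 to 5.89, whereas *Tfam* stays between -0.22 and 0.29.

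The same-strand clusters elsewhere inside the member genes, 5 in all, were described after their values had been seen. The strongest was in an intron of *Esrrg*, 78538 bp before the nearest downstream annotated 5′ end (chromosome 1, 187919140-187919855, plus strand). It was at 20.8, 16.1, 14.4 and 35.9 TPM in Pre, 45.2 to 96.2 TPM in Mid (median 69.5), 11.7, 23.1, 16.2 and 17.8 TPM in Post, 25.4, 30.1, 39.5 and 17.5 TPM in HiT, 16.5, 19.2, 23.5 and 29.5 TPM in Fed, and 65.2, 68.0, 80.5 and 76.2 TPM in Dep. All Mid and Dep libraries lay above all others of experiment #1. It was higher in Mid than in Pre by 1.79 ± 0.22 (FDR = 2.0e-06), in Mid than in HiT by 1.21 ± 0.22 (FDR = 8.4e-05) and in Mid than in Fed by 1.79 ± 0.22 (FDR = 1.4e-06), and it fell by 2.07 ± 0.23 from Mid to Post (FDR = 1.8e-07). In experiment #2 the values were 31.9 and 33.5 TPM in Pre, 76.2, 61.8, 53.7, 55.6 and 61.2 in Mid, and 19.2, 28.7 and 21.8 TPM in Post (Pre to Mid 0.98 ± 0.19, FDR = 0.010, and Mid to Post -1.50 ± 0.16, FDR = 0.00020).

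A second *Esrrg* cluster (peak 187652142, an intron in GENCODE and 99 bp before a RefSeq start) was at 13.6 to 14.8 TPM in Pre and 10.8 to 17.1 TPM in Mid (0.02 ± 0.10, FDR = 0.88). It was lower in HiT (6.46 to 11.1 TPM) than in Pre by a log2 value of -0.39 ± 0.11 (FDR = 0.0081). A sparse cluster in the 3′ UTR of *Ppargc1a* (peak 51455953, 3 to 121 tags per library in experiment #1) was at 0.339 to 0.740 TPM in Pre and 1.51 to 3.72 TPM in Mid (2.26 ± 0.42, FDR = 0.00019). A broad cluster over coding sequence of *Perm1* (peak 156217325) was at 9.17 to 11.5 TPM in Pre and 15.5 to 21.9 TPM in Dep (1.08 ± 0.29, FDR = 0.0066). An intronic *Ppargc1b* cluster (peak 61399002) was at 5.91 to 6.77 TPM in Pre and 4.49 to 6.92 TPM in Mid (-0.09 ± 0.17, FDR = 0.74) and was higher in Fed, at 6.98 to 14.4 TPM (Fed to Mid -0.71 ± 0.17, FDR = 0.0020).

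Beside the HiT values stand other measures of the same libraries. Over 7 of the 8 macrophage markers with a cluster, all but *Adgre1*, the summed level was 145 to 437 TPM in HiT against 38.4 to 102 TPM in the other libraries of experiment #1. Over 9 of the 10 slow-fibre markers it was 7515 to 14193 TPM in HiT against 12379 to 20870 TPM in the others, and over the 11 fast-fibre markers 13057 to 22390 TPM against 17731 to 29725 TPM. Tendon markers (6 of 6) summed to 1349 to 4022 TPM in HiT against 947 to 2434 TPM, and endothelial markers (6 of 6) to 198 to 351 TPM against 258 to 441 TPM. Their part in the HiT differences was not tested. Without HiT replicate 1, the library highest in macrophage markers, 5 members were called from HiT to Mid, as with it. Without Dep replicate 1 the count from Pre to Dep was 2, as with it, and without Fed replicate 2 the count from Fed to Mid was 3.

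Genes that work with the members were taken from 6 lists, each gene at its strongest promoter. From Pre to Mid 26 of the 117 measured genes rose and 16 fell, where 15.4% of all clusters rose and 14.8% fell. The share of list genes that fell was thus near that of all clusters, and the counts of the single lists are to be read against the same shares. Those shares cover all clusters tested, weak ones included, and are not matched in level to the strongest promoters of the list genes. Among PGC-1 partners and upstream kinases 9 of 36 rose and 4 fell. *Foxo1* (26.8 ± 2.60 TPM in Pre, n = 4, and 55.8 ± 15.3 in Mid, n = 8, log2 1.14 ± 0.20, FDR = 9.1e-05) and *Foxo3* (1.1 ± 0.17, FDR = 2.3e-05), forkhead factors active in fasting, rose most. *Prkag3*, a regulatory subunit of AMP-activated kinase, fell by 0.95 ± 0.33 (FDR = 0.034). Of the 14 measured nuclear receptors 5 rose and 4 fell. *Ppara*, the fatty-acid-sensing receptor, rose from 27.8 ± 3.59 to 67.9 ± 14.6 TPM (1.36 ± 0.13, FDR = 6.0e-08), whereas *Nr4a1* (-0.91 ± 0.30, FDR = 0.023) and the glucocorticoid receptor gene *Nr3c1* (-0.69 ± 0.14, FDR = 0.00039) fell.

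Of 4 measured genes listed beside NRF-1 and GABP (also called NRF-2), 3 rose and 1 fell, and the growth regulator *Myc* rose from 2.70 ± 0.576 to 10.6 ± 3.81 TPM (2.04 ± 0.25, FDR = 1.5e-06). *Nfe2l2*, an oxidative stress factor that is not part of GABP (0.40 ± 0.07, FDR = 7.4e-05), and *Max*, the partner of MYC (0.32 ± 0.08, FDR = 0.0041), rose as well. For mitochondrial DNA replication and transcription 4 of 13 rose and 2 fell, among them *Polg*, the mitochondrial DNA polymerase (0.40 ± 0.07, FDR = 0.00021), *Tfb2m*, a mitochondrial transcription factor (0.30 ± 0.08, FDR = 0.0079), and *Polrmt*, the mitochondrial RNA polymerase (0.27 ± 0.07, FDR = 0.0072). For fusion and fission 1 of 13 rose and 2 fell: *Opa1*, which fuses inner membranes (0.15 ± 0.06, FDR = 0.045), *Mtfr1* (-0.25 ± 0.08, FDR = 0.022) and *Yme1l1*, a protease that cleaves OPA1 (-0.18 ± 0.06, FDR = 0.028). In experiment #2, 9 of the 117 genes rose from Pre to Mid and 2 fell, where 5.3% of all clusters rose and 4.44% fell.

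The list of genes bound or raised by PGC-1 and ERR in muscle, mostly of the respiratory chain, citric acid cycle and fatty-acid oxidation, held 37 measured genes. From Pre to Mid 4 of them rose and 3 fell, with a median log2 change of 0.01 (0.01 over all clusters). From HiT to Mid 29 of 37 were higher in Mid and 0 lower (median 0.36 against 0.02 over all clusters), where 19.2% of all clusters were higher and 21.8% lower. From Pre to HiT 2 rose and 26 fell (median -0.38 against 0.04), where 18.5% of all clusters rose and 14.9% fell. Other lists had 6 of 13 higher and 1 lower from HiT to Mid and 0 higher and 5 lower from Pre to HiT (fusion and fission), 6 of 14 and 1, then 0 and 4 (nuclear receptors), and 10 of 36 and 2, then 4 and 4 (PGC-1 partners). In the remaining lists more genes rose than fell from Pre to HiT. They had 4 of 13 and 2, then 3 and 2 (mitochondrial DNA replication and transcription), and 1 of 4 and 0, then 2 and 1 (genes listed beside NRF-1 and GABP). Differences between lists were not tested. With other scalings, with the replicate number as a block or without HiT replicate 1, 21 to 31 genes bound or raised by PGC-1 and ERR were higher in Mid than in HiT and 24 to 29 fell from Pre to HiT. From Fed to Mid 18 genes of the PGC-1 and ERR list were higher and 1 lower in Mid (16.6% and 18.6% of all clusters), but without scaling factors 3 were higher and 1 lower. Leaving out the scaling factors also moved the median of all clusters, to 0.11 from HiT to Mid, -0.13 from Pre to HiT and -0.12 from Fed to Mid. The 3 genes of this list with the largest called Pre to Mid changes all rose. *Pdk4*, which shuts off pyruvate oxidation, was at 437 ± 95.7 TPM in Pre, 4553 ± 1358 in Mid and 4082 ± 1153 in HiT (HiT to Mid 0.05 ± 0.25, FDR = 0.90). *Ucp3*, a mitochondrial carrier, was at 11.98 ± 1.36, 75.8 ± 25.8 and 58.6 ± 11.1 TPM (HiT to Mid 0.23 ± 0.23, FDR = 0.44), and *Ppif*, a matrix cyclophilin, rose from Pre to Mid by 0.55 ± 0.11 (FDR = 0.00027) and was higher in Mid than in HiT by 0.33 ± 0.10 (FDR = 0.014).

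**Figure D5:**
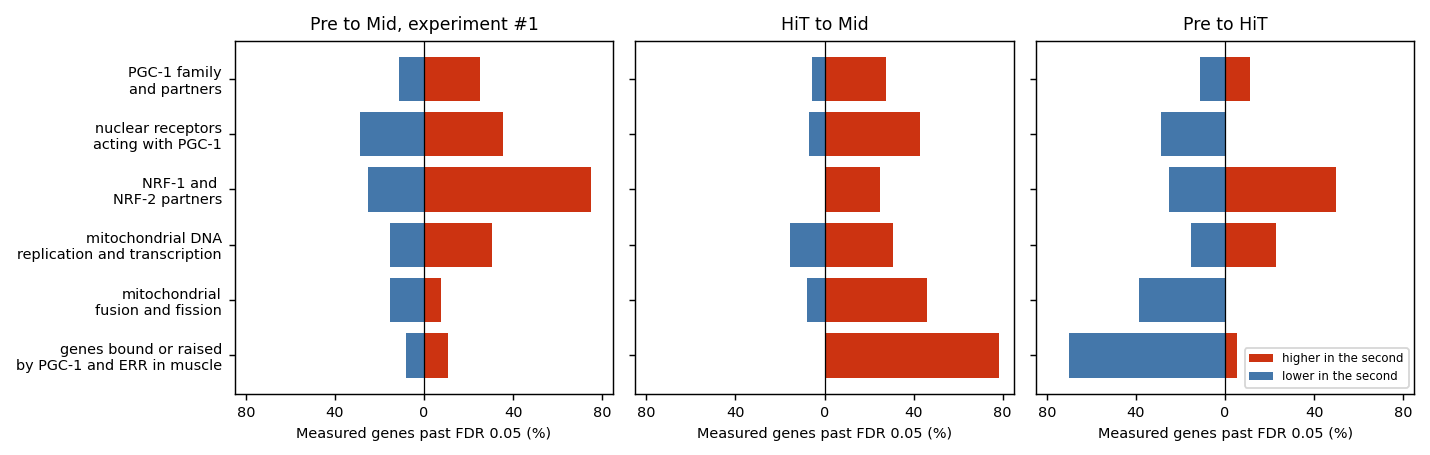
Percent of the measured genes of 6 pathway lists that were higher (right) or lower (left) in the second condition at FDR under 0.05, for 3 comparisons. Of the genes bound or raised by PGC-1 and ERR, 78.4% were higher in Mid than in HiT and 10.8% rose from Pre to Mid.

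The promoters of other genes whose levels ran most alike with the upstream *Ppargc1a* promoter over the 28 libraries of experiment #1 were those of *Pttg1ip* (Spearman's rho 0.94), *Lrch1*, *Mat2b*, *Mafk* and *Atp6v1h* (0.93 each). *Mafk* encodes a small Maf transcription factor, *Mat2b* a subunit of methionine adenosyltransferase and *Atp6v1h* a subunit of the vacuolar proton pump. Over the 10 libraries of experiment #2 their rho was 0.87, 0.75, 0.83, 0.83 and 0.71. These points share the libraries and the group differences, so the values describe likeness and no more. *Lrch1* rose from 1.33 ± 0.491 TPM in Pre to 19.2 ± 7.03 in Mid, and *Mafk* from 47.0 ± 7.15 to 129 ± 33.8 TPM (SD, n = 4 and 8). Among the members *Gabpa* was at 0.81 and *Ppargc1b* at -0.77 on the same measure, and the downstream *Ppargc1a* promoter at -0.36.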

How the data were processed

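Promoter activity was measured by nAnT-iCAGE, which sequences the capped 5′ ends of RNA without amplification, in 38 libraries. The authors mapped trimmed reads to mm10 with bwa and hisat2 and clustered the start sites with PromoterPipeline. The deposited counts are the tags of each library in each of 10819 clusters. The authors also deposited TPM values, which match the counts per 1000000 tags of a library without TMM scaling. All levels and SDs here are TPM.

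Clusters were tied to genes within 500 bp of a GENCODE M21 5′ end. Counts were tested with edgeR 4.0.16 (R 4.3.3), by the quasi-likelihood F test with TMM scaling and group as the only term, over the 28 libraries of experiment #1 (10776 clusters with a tag), the 10 of experiment #2 (10816) and, for the difference between experiments, all Pre, Mid and Post libraries. The threshold was an FDR of 0.05 by Benjamini-Hochberg. The script was tested on simulated data. Alternatives were other scalings, filterByExpr, DESeq2 1.42.0, the likelihood ratio test, compared groups alone, a replicate block and each library left out. All members are named, with the 3 genes of each list with the largest Pre to Mid change among those called and the 5 promoters most like the upstream *Ppargc1a* promoter. Members and lists were chosen with earlier results of these data known.

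Promoter sequences are from RefSeq (GRCm38.p6) and matched by symbol. No 2 libraries of a group were duplicates (lowest chi-square per cluster 12.4 over 72 pairs). At the upstream *Ppargc1a* promoter, 13 to 11721 tags per library were counted in experiment #1, and the lowest levels carry the most counting error. Tags of overlapping promoters are separated by strand.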

Additional observations from a re-analysis of the deposited data

Results flagged for a closer look

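The share of *Ppargc1a* tags from the upstream promoter was 37.2% in Mid replicate 6 of experiment #1, far below the next lowest Mid library (75.7%) and the highest (91.5%). Its gap to the nearest library was 0.708 of the range of the 8 Mid libraries. It was the 1 library set apart among 56 groups of 4 to 8 libraries examined (7 promoters and this share), and the limit used sets apart about 1 group in 20 by chance. Without this library the log2 ratio of the downstream over the upstream promoter differed between Mid and Pre by -5.73 (two-sided p = 0.0030 by exact permutation, the lowest that 330 divisions allow).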

How the results depend on the processing

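Over 8 alternatives in experiment #1 and 7 in experiment #2, 195 of 204 values of the 26 called member changes kept their direction and their call, 9 lost the call and 0 reversed. The lost ones were 5 without scaling factors among *Esrra* and *Gabpa* and 4 of *Tfam* from Fed to Mid (upper-quartile scaling, no scaling factors, replicate block, compared groups only, FDR = 0.067 to 0.72), which also lost the call without Mid replicate 3, 5 or 7 or Fed replicate 1 or 2. The causes were not tested. Of 65 uncalled values 7 were called under an alternative and 11 without some library. Beside the downstream *Ppargc1a* promoter, upper-quartile scaling and DESeq2 each called *Esrra* from Pre to HiT (-0.40, FDR = 0.068 in the main fit). DESeq2 also called *Esrra* from Mid to Post of experiment #2 and *Gabpa* from Pre to Fed. The replicate block called *Tfam* from HiT to Mid and Pre to HiT. Beside those given with the members, the values called without some library were *Esrra* from Pre to HiT (without Pre replicate 1 or HiT replicate 3) and Mid to Post of experiment #2 (without Mid replicate 13 or Post replicate 6), *Gabpa* from Pre to Fed (without Fed replicate 3) and Mid to Post of experiment #2 (without Mid replicate 10), *Perm1* from Mid to Post (without Mid replicate 3), and *Tfam* from HiT to Mid (without Mid replicate 3, 5 or 7 or Fed replicate 3) and Pre to HiT (without Pre replicate 3).

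The count of members called was 1 in Pre to Dep without scaling factors (1444 of all 10776 clusters were called), and 1 in Pre to Fed with DESeq2 (1559 of 10776). A further count took in the 5 clusters elsewhere inside the member genes beside the 7 members, an alternative chosen after seeing the data. It was 8 in Fed to Mid (35.2% of all clusters were called), 8 in HiT to Mid (41.0%), 5 in Pre to Dep (25.8%) and 2 in Pre to Fed (11.2%). It was 5 in Pre to Mid of experiment #1 (30.2%), and 4 in both Pre to Mid (9.74%) and Mid to Post (16.4%) of experiment #2. With single libraries left out the count of members ranged from 0 to 1 in Pre to Fed and from 1 to 2 in Pre to Mid of experiment #2. The promoter ratio within *Ppargc1a* stayed between -6.00 and -4.86 (-4.98 with 1 TPM and -5.37 with 0.01 TPM added).

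With the replicate block the count was 4 in Pre to Mid of experiment #1, 6 in HiT to Mid and 5 in Pre to HiT. It rose through the downstream *Ppargc1a* promoter (-0.42, FDR = 0.014, from Pre to Mid) and *Tfam*. From Fed to Mid the count stayed at 4 as the downstream *Ppargc1a* promoter was gained (-0.53, FDR = 0.0032) and *Tfam* lost (0.18, FDR = 0.067). With the block, 3147, 3971, 3508 and 2841 of all 10776 clusters were called in these comparisons, in the same order. Replicate numbers name different mice and were not taken as pairs. Deviations of same-numbered libraries correlated at 0.018 on average (60 pairs, -0.38 to 0.51), against -0.0040 for other numbers (260 pairs). Of the 28 libraries, 10 were most like one of their own number. The count to be had by chance was not worked out, so shared handling by number was not tested. No paired analysis was possible in experiment #2 because its Pre and Mid groups share no replicate number. There, leaving out Mid replicate 13 keeps Pre to Mid within 1 sequencing lane. The lane of the Post libraries held 1 Mid library, so Mid to Post of experiment #2 nearly coincides with lane. Depth limits values of a few tags only.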
